A study of Oryza sativa with 2 samples.

Results

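Small heat shock proteins of the developing rice collar were followed on 2 arrays, of which 1 carried RNA of wild type rice and 1 carried RNA of rice transformed with antisense OsLIC. The gene family was taken by name: a gene belonged to it when a symbol or synonym read Hsp, with or without Os, followed by a mass from 15 to 26 kDa with 1 decimal and an optional letter. The rule found 22 genes, of which 19 had at least 1 probe set, against 17905 genes with a probe set on the whole array. OsHsp24.1, OsHsp17.4, OsHsp18.1, OsHsp17.9A and OsHsp18.0 had been put forward for their falls, so these 5 were selected on their log2 ratio between the very arrays described here. The ratios of the family are therefore a description and carry no test.

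Both plant groups grew in the same field, and collars were cut at the heading stage, when the new leaf had only just emerged from the stem. Each RNA came from 30 collars taken from as many plants, pooled before hybridisation to the GeneChip Rice Genome Array. Transgenic collars came from line 2, in which the maize ubiquitin1 promoter, active in most tissues, transcribes the whole OsLIC cDNA in reverse. Line 2 is a single transgenic line, in which an effect of the construct and one of its insertion site cannot be told apart. With 1 array per condition no spread between samples exists, so that no test was made and no difference has a replicate array. The deposited signals are linear values of the Affymetrix software GCOS, which brought each array to an overall intensity of 500. Values under 20 were raised to 20 before a log2 ratio of antisense over wild type was formed, and only probe sets with 100 or more on their brighter array were used. In pooled tissue, fewer cells of a type and less RNA per cell cannot be told apart.

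OsLIC, the gene to be silenced, had the higher signal under the antisense label. Its probe set read 219.8 on the wild-type-labelled array and 2069 on the antisense-labelled array. Whether that signal came from the gene or from the construct was not tested. Every direction below is consequently one between arrays as labelled. The study also examined OsLIC protein by immunoblot and chosen transcripts by RT-PCR; neither measure is in the array files, and neither was used here. The arrays had median signals of 67.2 and 69.7, and 24901 and 25040 probe sets reached 100 on them. As a sign of RNA quality, the ratio of 3′ to 5′ control probe sets differed between them by at most 0.51 on the log2 scale for 6 of 7 housekeeping pairs and by 1.97 for the remaining one, a glyceraldehyde-3-phosphate dehydrogenase pair with ratios of 4.61 and 18.0. Among markers of tissues that a dissected collar could include, 7 genes of a floral list passed the minimum. Of these, 4 were at least 2-fold lower on the antisense-labelled array, where 2.85% of all genes past the minimum were. They were OsMADS14, OsMADS15, OsMADS34 and OsMADS2. Whether these genes are specific to floral organs was not tested. The signals of all 7 summed to 4493 and 2125, of which OsMADS14 gave 2510 and 555. The list did not move as one: OsMADS16 went from 1001 to 1179 and DL from 130 to 229. Of the 16 genes on the floral list, 9 stayed under the minimum and 2 of these were under 20 on both arrays. The 4 leaf blade genes of photosynthesis summed to 55498 and 46803, with 1 of them at least 2-fold lower. CAB2R fell barely short of 2-fold, from 25685 to 12844 (log2 ratio -0.9998), and its second probe set was at -1.23. OsrbcS went the other way, from 14898 to 25699 by the probe set that stands for it. All 3 genes of the lamina joint list, OsLIC included, passed the minimum. Whether the lower signals of 4 floral list genes or the difference in the control pair have a part in the results below was not tested.

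Small heat shock proteins are compact chaperones built around an alpha-crystallin domain. They assemble into oligomers that hold unfolding proteins in a soluble state, from which Hsp70 and Hsp100 machines can refold them. Plants own many more of them than animals do, sorted by sequence into classes that serve the cytosol, the nucleus, mitochondria, chloroplasts, the endoplasmic reticulum and peroxisomes. In vegetative tissue most of their transcripts are scarce until heat or another stress lets heat shock factors activate the genes.

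Of the 13 family genes that passed the signal minimum, 6 were at least 2-fold lower on the antisense-labelled array and none was at least 2-fold higher. Among all 14742 genes past the minimum the shares were 2.85% lower and 3.73% higher. Since the family was chosen for its falls, nothing is read from that contrast. The median log2 ratio over the 13 genes was -0.81, beside -0.01 over all genes. Counted as probe sets, 8 of 17 were at least 2-fold lower and none higher, where 4.64% and 5.28% of all 26697 probe sets were. With a minimum of 500 on the brighter array the 6 were counted out of 9 family genes, with 1.78% lower and 2.40% higher among all genes at that limit. OsHsp17.4, OsHsp18.1, OsHsp18.6 and OsHsp24.1, 4 of the 6, reached 500 through the wild type signal alone, so that they had to differ there. By the probe set that stands for each gene, the 6 fallen genes lay apart from the remaining 7. The weakest fall was the log2 ratio of -2.40 of OsHsp17.9A, and the next value was -0.81 for OsHsp16.9A. OsHsp18.0 also had probe sets at -0.38 and -0.13, so its distance from the 7 depends on that choice.

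**Figure D1:**
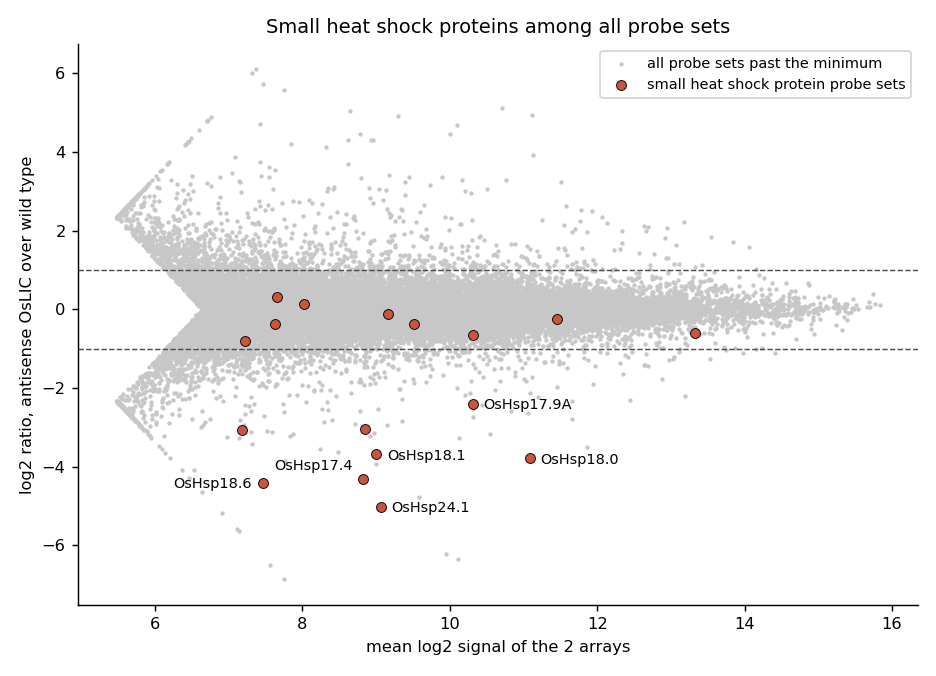
Log2 ratio of antisense OsLIC over wild type against the mean log2 signal of both arrays, for the 26697 probe sets past the signal minimum (grey) and the 17 of small heat shock proteins (red), with dashed lines at 2-fold. The 6 named genes sit between -2.40 and -5.02, and the other family probe sets sit among the bulk between -0.81 and 0.30, apart from the second probe sets of OsHsp18.1 and OsHsp18.6 near -3.

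Class I, the largest class of the cytosol, split in the middle. OsHsp17.4, a class I chaperone, had a signal of 2025 in the wild-type-labelled RNA and of 102 in the other, 19.9-fold lower. That log2 ratio of -4.31 was rank 12 from the lowest of all 26697 probe sets. The lower signal lay just above the minimum of 100.

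OsHsp18.1, also of class I, was read by a pair of probe sets made from the same transcript. The more specific one went from 1847 to 144 (12.9-fold lower, log2 ratio -3.69). Its companion with the suffix _x_at, which can bind related transcripts too, went from 1327 to 162 (8.20-fold lower, log2 ratio -3.04). Both were lower on the antisense-labelled array. OsHsp17.9A had signals of 2927 and 554, 5.28-fold lower, which made it the smallest of the 6 falls and rank 208 from the lowest among all probe sets.

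The other class I genes with a used probe set did not pass 2-fold. OSHSP17.7 went from 1598 to 1012, a log2 ratio of -0.66, by the probe set that gave a signal, while its second probe set read 2.60 and 6.52, under the floor on either array. OsHsp16.9A had signals of 197 and 112 (log2 ratio -0.81). OsHsp16.9B, named in the annotation as a separate gene although OsHsp16.9A carries its name as a synonym as well, had signals of 250 and 274 (log2 ratio 0.14). Oshsp16.9C has no probe set matched to it and was not analysed here. The 6 class I genes with a used probe set thus held 3 falls, where 2.85% of all genes past the minimum were lower. Log2 ratios of the 6 ran from -4.31 to 0.14, with a median of -1.60.

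OsHsp18.0 belongs to class II, the other main class of the cytosol, and gave the least uniform reading. The probe set made from the transcript AK071240 went from 8101 to 585, 13.8-fold lower with a log2 ratio of -3.79. A probe set of the suffix _s_at from AK106889 read 838 and 644 (log2 ratio -0.38), and one from AK120391 read 602 and 550.1 (log2 ratio -0.13). Hence 1 of 3 probe sets was past 2-fold. The mean log2 ratio over all 3 was -1.43, and with the probe set of smallest change in its place the gene would not be counted. Which transcripts these probe sets bind was not tested. The annotation also lists OSHSP18.0 as a synonym of OsHsp18.1. OsHsp19.0, the other class II gene, has no matched probe set and was not analysed here.

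AK071240 is the transcript of this family for which the study designed RT-PCR primers, and they are printed, 5′ to 3′, because they belong to the transcript of the OsHsp18.0 probe set that was past 2-fold. Each has 20 bases with a GC content of 50%, and no part is set in capitals since none was placed on a gene sequence.
AK071240 sense primer: tcaagtcctccgacatcaag
AK071240 antisense primer: cacatcgcatacggcataca

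OsHsp18.6, of class III, whose members are found in the nucleus and the cytosol, was not among the 5 genes put forward, although its log2 ratio was below those of 4 of them. The probe set that stands for it, with the suffix _s_at, read 818 in wild type and 38.3 in antisense OsLIC, 21.3-fold lower (log2 ratio -4.42). A more specific one from the same transcript read 421 and 49.9, 8.43-fold lower (log2 ratio -3.08). One more, from another transcript, read 51.8 and 15.3, under the minimum on both arrays. All 3 were lower in the antisense-labelled RNA, although the low ends were dim, and a floor of 100 would shorten the log2 ratio of -4.42 to -3.03.

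**Figure D2:**
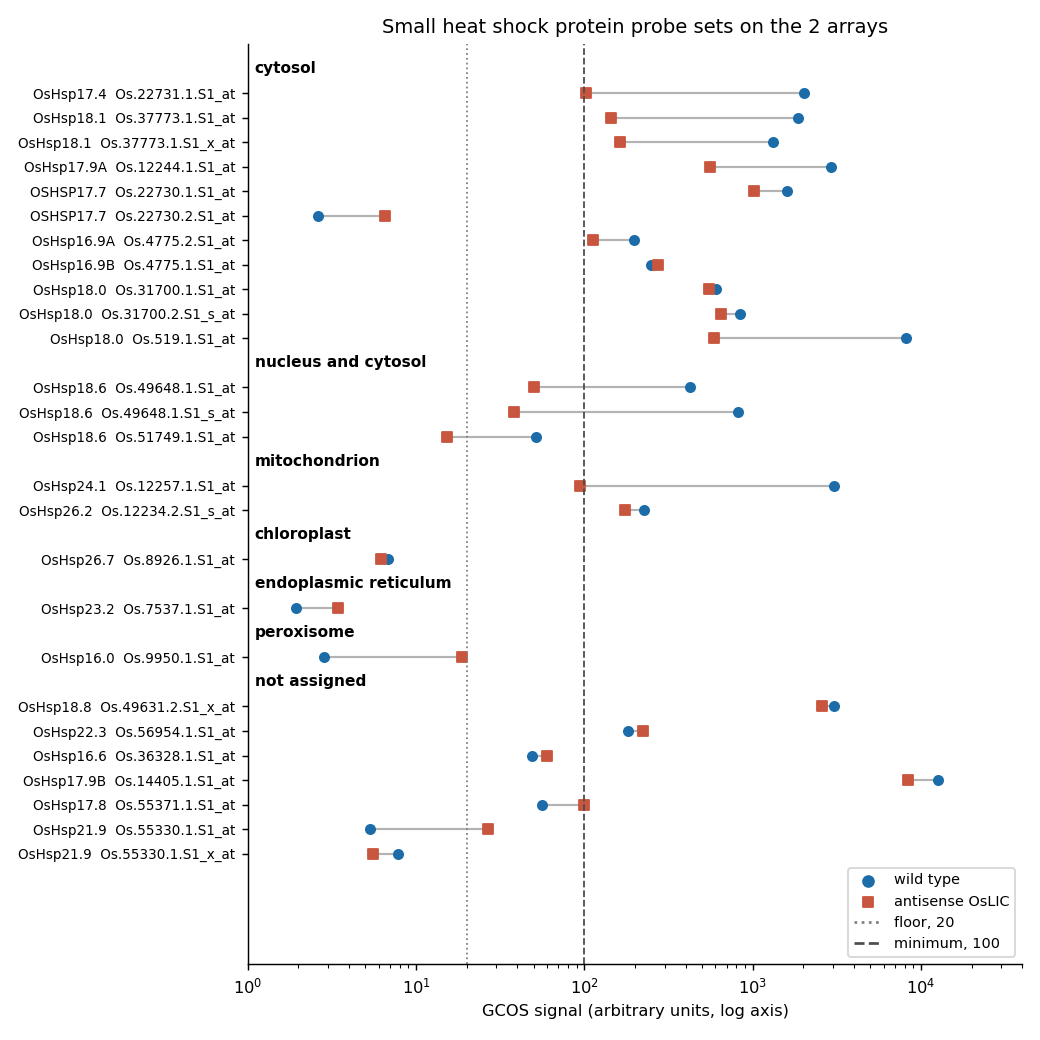
GCOS signal on a log axis for each of the 26 probe sets of the family, with wild type as blue circles and antisense OsLIC as red squares, grouped by the compartment of the protein; dotted and dashed lines mark the floor of 20 and the minimum of 100. Long connecting lines belong to OsHsp17.4, OsHsp18.1, OsHsp17.9A, OsHsp18.6, OsHsp24.1 and 1 of the 3 probe sets of OsHsp18.0.

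The mitochondrial members parted in the same manner. OsHsp24.1, a chaperone of the mitochondrion, showed the largest fall of the family, from 3053 to 94.1. This was 32.4-fold lower, a log2 ratio of -5.02, and rank 8 of all probe sets. OsHsp26.2, also mitochondrial, had signals of 226 and 175 (log2 ratio -0.37), by a probe set of the suffix _s_at. OsHsp24.1 has no second probe set, so its value rests on 1 reading per array.

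Members of the remaining organelles gave no usable signal. OsHsp26.7, the chloroplast protein, read 6.81 and 6.17. OsHsp23.2, of the endoplasmic reticulum, read 1.92 and 3.45, and OsHsp16.0, of the peroxisome, read 2.83 and 18.7. All 3 were under the floor on both arrays, so that a difference was not detectable and no ratio is given.

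The 7 remaining genes were not assigned to a compartment. OsHsp17.9B went from 12655 to 8384 (log2 ratio -0.59) and OsHsp18.8 from 3035 to 2576 (log2 ratio -0.24, by a probe set of the suffix _x_at). OsHsp22.3 had signals of 181 and 224 (log2 ratio 0.30). None of these 3 passed 2-fold. OsHsp17.8 stayed just under the minimum with 56.0 and 99.1, OsHsp16.6 read 48.7 and 59.9, and both probe sets of OsHsp21.9 stayed at or under 26.6. No probe set was matched to OsHsp18.9, which was not analysed here.

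By compartment, then, the falls comprised 4 of 7 used genes of the cytosol, the single class III gene, and 1 of 2 mitochondrial genes. Of the genes without a compartment, 0 of 3 were among them. Of all genes past the minimum, 2.85% were at least 2-fold lower. Because 5 of the 6 fallen genes were put forward for their falls, nothing is read from their spread over compartments. Only OsHsp16.9B and OsHsp22.3 had a positive log2 ratio among the 13. The minimum was met by OsHsp24.1 and OsHsp18.6 through the wild type signal alone, whereas the other 4 fallen genes reached 100 on both arrays. A gene that passes in this way had to differ, which limits what its count can say.

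Position on the chromosome was examined because several class I genes lie side by side. In the RefSeq annotation of assembly ASM3414082v1, OsHsp17.4, OsHsp18.1 and OSHSP17.7 followed each other with no other gene between them, and 4 annotated genes lay between OsHsp17.9A and OsHsp17.4. The first pair was 19.9-fold and 12.9-fold lower, while OSHSP17.7, the immediate neighbour of OsHsp18.1, had a log2 ratio of -0.66. A second run held OsHsp16.6, OsHsp17.9B, Oshsp16.9C, OsHsp16.9A and OsHsp16.9B in unbroken order, and none of its 3 used genes was 2-fold lower. Falls past 2-fold were thus seen in 1 of these 2 groups of neighbours, and not in OSHSP17.7. The fallen neighbours were all put forward for their falls, and 2.85% of all genes past the minimum were at least 2-fold lower.

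**Figure D3:**
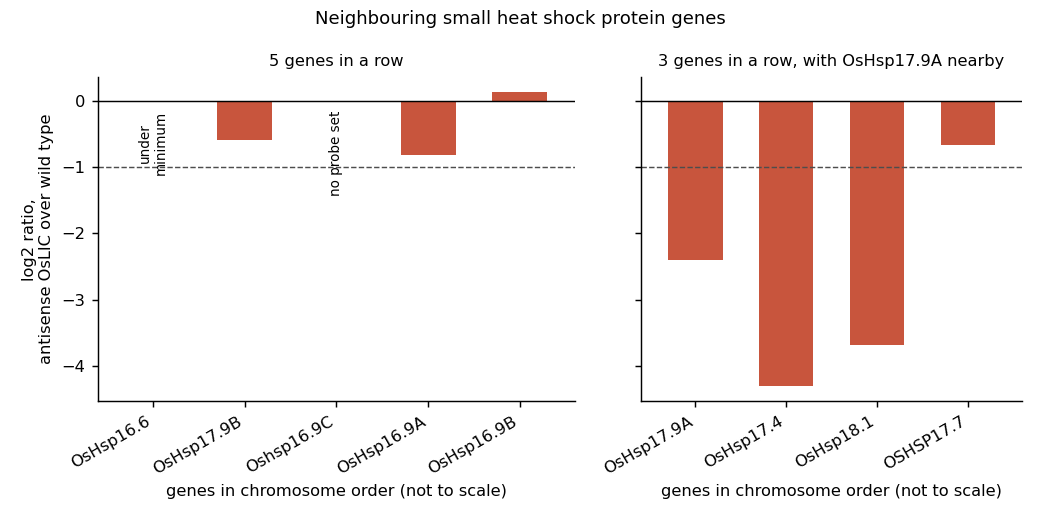
Log2 ratio of antisense OsLIC over wild type for neighbouring small heat shock protein genes, in chromosome order and not to scale, with a dashed line at 2-fold lower. OsHsp17.9A, OsHsp17.4 and OsHsp18.1 reach -2.40, -4.31 and -3.69, while OSHSP17.7 stops at -0.66 and the second run spans -0.81 to 0.14.

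Genes that work with small heat shock proteins were compared in the same way. Heat shock factors are the transcription factors that bind the promoters of these genes. Class A factors activate them, while class B factors lack the activation domain of class A and often act as repressors or co-regulators. Of 15 factors with a used probe set, OsHsf-24 and OsHsf-14 were at least 2-fold lower and OsHsf-25 was at least 2-fold higher (median log2 ratio -0.08), where 2.85% of all genes were lower and 3.73% higher. The annotation names both lower factors as class B, HSFB2C for OsHsf-24 and HSFB2A for OsHsf-14. Both calls are no contrast of the classes, since class B OsHsf-23 had a log2 ratio of 0.37. Under the minimum, class A OsHsf-18 read 79.9 and 2.53 and class B OsHsf-21 read 82.4 and 7.21 by its brighter probe set. All probe sets of class A OsHsf-11 were also lower and under the minimum. OsHsf-24 went from 700.0 to 74.7, and further probe sets for it gave log2 ratios of -1.54 (307.7 to 106) and -2.98 (158 to 7.02, with the floor of 20). OsHsf-14 went from 176 to 57.1 (log2 ratio -1.62), and its other probe set from 499 to 2.31, at least 25.0-fold lower against the floor of 20. The first stands for the gene because its mean log2 signal after the floor was, by a narrow margin, the higher one. OsHsf-25 and OsHsf-08 are named as class A, HSFA2C and HSFA2D. They share their annotation entries with names of acireductone dioxygenases, enzymes of another pathway. Both had probe sets that disagreed: 2.79 and -2.06 for OsHsf-25, and -0.08 and -2.71 for OsHsf-08. Without these entries 2 of 13 factors were lower and none was higher, with a median of -0.35. OsHsf-03 came close to 2-fold with a log2 ratio of -0.97.

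Among the larger chaperones 1 gene or none per list was past 2-fold. Of all genes past the minimum, 2.85% were lower and 3.73% higher. These lists are short matches by name and do not survey whole families. The Hsp70 list held 4 genes, and the 2 with a probe set were both BiP genes, so no other Hsp70 was read. The DnaJ list held 8 genes, of which 5 were used. HSP81-1, an Hsp90, went from 12390 to 2508 (log2 ratio -2.30) and by a second probe set from 3195 to 772 (log2 ratio -2.05). HSP81-2 and HSP81-3, the other Hsp90 genes, had log2 ratios of -0.04 and 0.07. CLPB1, an Hsp100 that pulls proteins out of aggregates, was 2.49-fold lower, from 479 to 192, and the chloroplast form CLPB-C had a log2 ratio of -0.26. Among 5 DnaJ proteins, which deliver clients to Hsp70, OsDjC27 went from 895 to 128 (log2 ratio -2.81) and the other 4 had log2 ratios from 0.04 to 0.23. OsBiP1, the one Hsp70 list member past the minimum and resident in the endoplasmic reticulum, had a log2 ratio of -0.53. OsAPx2, a cytosolic ascorbate peroxidase that removes hydrogen peroxide, was 2.15-fold lower (log2 ratio -1.10, and -1.26 and -1.82 by 2 further probe sets), the single one of 7 ascorbate peroxidases past 2-fold. The next in size were OsAPx7, OsAPx8 and OsAPx5, with log2 ratios of 0.83, 0.47 and -0.32.

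**Figure D4:**
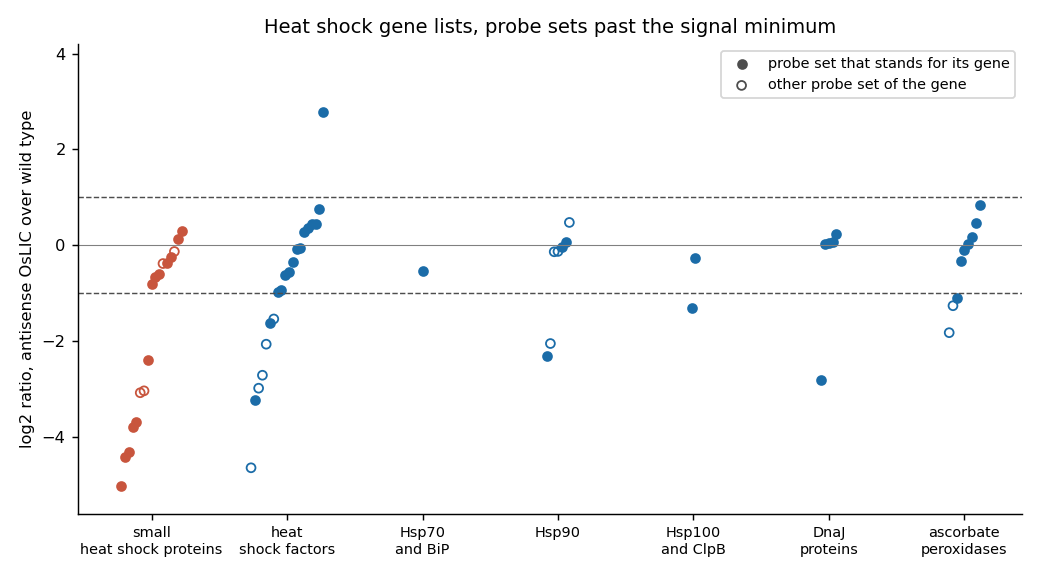
Log2 ratio of antisense OsLIC over wild type for probe sets past the signal minimum in 7 gene lists; filled points stand for their gene, open points are its other probe sets, and dashed lines mark 2-fold. Small heat shock proteins reach -5.02, and outside them the filled points under 2-fold lower are OsHsf-24, OsHsf-14, HSP81-1, CLPB1, OsDjC27 and OsAPx2.

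A log2 ratio of -2.40 or less was found for 56 of the 14742 genes (0.380%). That limit is the ratio of OsHsp17.9A, the weakest of the 6 falls, so all 6 fallen small heat shock proteins are inside it by construction. OsHsf-24 and OsDjC27 were also among the 56. Of the 10 lowest genes, 3 were small heat shock proteins, namely OsHsp24.1, OsHsp18.6 and OsHsp17.4. This ordering uses the same ratios by which the 5 genes were selected and is a description only.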

How the data were processed

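The authors deposited 1 linear signal per probe set for each of 2 arrays, computed and scaled to 500 by GCOS (version not given in the sources used here). The 2% trimmed mean, 500.1 on both arrays, was checked. Of 57381 probe sets, 187 controls and reporters were left out. Probe sets were joined to genes by the gene identifier in the platform annotation, and symbols and synonyms were taken from RefSeq. Signals under 20 were set to 20, and each gene took the value of its used probe set with the largest mean of log2 signals after that floor. Genes at or past a log2 ratio of 1 or -1 were counted as higher or lower. Every member is named, and of each other list up to 4 genes with the largest absolute log2 ratio. OsHsf-08, OsHsf-11, OsHsf-18, OsHsf-21 and OsHsf-23 were named after their values were seen. Members, lists and compartments were chosen with earlier results of these data known. Compartments are general knowledge of the named classes. The floral list leaves out OsMADS18, matched through an old synonym. Promoter and protein sequences were not analysed here. Calculations used Python 3.11.15, numpy 2.4.6 and pandas 2.3.3, and the code was tested on simulated data.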

Additional observations from a re-analysis of the deposited data

How the results depend on the processing

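The number of arrays, 1 per condition, limits every value, and dim signals limit the low end of the largest falls. The count of 6 genes at least 2-fold lower was unchanged under median centring, quantile normalization, a pseudocount of 50, a floor of 100, a 3-fold threshold, the mean over probe sets, leaving out suffixed probe sets (_x_at, _s_at), and signal minimums of 0, 50, 200 and 500. It was 4 with a minimum of 100 on both arrays, which leaves out OsHsp24.1 and OsHsp18.6, and 5 with the probe set of smallest change per gene, an alternative added after seeing the data, which leaves out OsHsp18.0. A 3-fold threshold could not change the count, since the weakest fall was at -2.40 and the next gene, OsHsp16.9A, at -0.81. Median centring and quantile normalization put OsHsp16.9A at -0.86 and -0.81, so they had little room to change it. The count of probe sets was 5 in place of 8 with a minimum of 100 on both arrays. It was 6 of 12 without the suffixed probe sets, 7 of 12 at a minimum of 500, and 9 at minimums of 0 and 50. No gene was 2-fold higher under these settings, apart from the added one, where this was not counted. The median log2 ratio of -0.81 moved by more than 0.5 to -1.53 and -3.69 at minimums of 200 and 500 and to -2.40 without the suffixed probe sets, each of which tests fewer genes. Towards 0, it was -0.37 with no minimum, where dim genes enter, and between -0.66 and -0.63 with a pseudocount of 50, a minimum of 50, a minimum on both arrays and the probe set of smallest change. Of 76 log2 ratios of single genes under other settings, 7 moved by 0.5 or more and none changed sign from a called value. No paired analysis was possible because each condition has 1 array.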

Other observations

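Of 6 circadian clock genes past the minimum, whose transcripts follow the time of day, 1 was at least 2-fold lower on the antisense-labelled array. None was at least 2-fold higher. Among all genes past the minimum, 2.85% were lower and 3.73% higher. OsPRR95, a pseudo-response regulator, went from 12524 to 1106, a log2 ratio of -3.50. The next in size were OsPRR73, OsPRR37 and OsPRR1, with log2 ratios of -0.43, -0.41 and -0.10. GI and OsCCA1 had log2 ratios of -0.02 and 0.05. A second probe set of OsPRR37 went the other way, from 327 to 519 (log2 ratio 0.67). The hour of harvest is not given in the sources used here.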
